A study of Mus musculus with 12 samples.

Results

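Mitochondrial ribosomal proteins (MRPs) were followed in bone marrow-derived macrophages (BMMs), the cells that bone marrow precursors become under M-CSF, as transcripts of 77 nuclear genes. The genes were taken by name, every symbol that begins with Mrps or Mrpl followed by a number, with pseudogenes left out, among 38887 genes in each library. Of these, 29 carried small subunit names and 48 large subunit names. Symbols are not a perfect guide to the particle. Mrps18a and Mrps30 are named for the small subunit although their proteins sit in the large one, and Mrps36 is known as a component of the 2-oxoglutarate dehydrogenase complex.

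The study sequenced poly(A) RNA from BMMs of 3 wild-type (WT) and 3 IGF2BP2 knockout (KO) mice, untreated (M0) or exposed to IL-4 (M2), which gives 4 groups of 3 libraries. All cells were grown for 6 days in 50 ng/ml M-CSF, and the M2 cells then received 20 ng/ml IL-4 for 8 h. In KO mice, B6.Cg-Igf2bp2tm1.1Thor/J crossed to 29P2-Lyz2tm1(cre)Ifo/J, exons 4 and 5 of Igf2bp2 are flanked by loxP sites and removed by a Cre recombinase placed in the Lyz2 locus, which directs the deletion to myeloid cells, although this driver is not strictly specific to them. The WT mice were littermates with no floxed allele, some with and some without Cre. IGF2BP2 is an RNA-binding protein that affects the stability and translation of the mRNAs it binds.

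The mitochondrial ribosome is a particle of its own inside the organelle, which translates only the few mRNAs that mitochondrial DNA encodes, all for subunits of the respiratory chain and the ATP synthase. Its rRNAs come from the mitochondrial genome, whereas every one of its proteins is encoded in the nucleus, made in the cytosol and imported. The small subunit holds the mRNA and reads the codons, and the large subunit joins the amino acids. Alternative activation by IL-4 is known to be accompanied by greater mitochondrial biogenesis and oxidative metabolism in macrophages.

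The libraries carried macrophage markers. Total expected counts ran from 20011771 to 39632751 per library, and 12846 genes passed the filter on low counts, including all 77 MRP genes, whose lowest count in any library was 257. Csf1r lay between 737 and 902 TPM (transcript level corrected for length and library size) and Cd68 between 1386 and 1699. Adgre1 lay between 429 and 838 TPM and Itgam between 368 and 548. Cd14 ran from 81.9 to 830 TPM and Fcgr1 from 30 to 82, both lower with IL-4, and Mertk was low at 1.85 to 3.3. The T cell genes Cd3e, Cd3g and Cd8a were listed at 0 in all 12 libraries. Of the B cell genes, Cd79b lay between 7.6 and 13.0 TPM, while Cd79a and Ms4a1 did not pass 0.09. The mannose receptor gene Mrc1, a marker of IL-4 activation, lay between 75.9 and 99.5 TPM in WT M0 and between 45.5 and 53.8 in KO M0. It was called lower in untreated KO (-0.86 on the log2 scale, edgeR adjusted p = 5.22e-04). In M2 it lay between 662 and 872 TPM, and its IL-4 change was called larger in KO (by 0.69, edgeR adjusted p = 0.0233). Igf2bp2 itself, counted over the whole gene and therefore also over exons outside the deletion, gave 70.1, 58.3 and 42.1 TPM in WT M0 against 56.1, 48.5 and 53.8 in KO M0, which overlapped. In M2 it gave 120, 127 and 95.9 TPM in WT against 75.4, 72.8 and 71.3 in KO, which did not. In the study, Western blot and qPCR found almost no IGF2BP2 protein or mRNA in KO BMMs. Lyz2, the gene that carries Cre, lay between 15.2 and 50.2 TPM in KO libraries and between 6126 and 15401 in WT libraries. Loss of IGF2BP2 and loss of Lyz2 expression cannot be told apart in any comparison of genotypes below.

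One property of the libraries touches these genes directly. MRP transcripts were short, with a median length of 901 nt against 2371 nt for all genes tested. In 2 libraries, genes with short transcripts (under 900 nt) stood high against genes with long ones (over 3000 nt), by 0.285 on the log2 scale in KO M2 replicate 1 and by 0.164 in WT M0 replicate 3, while in WT M0 replicate 1 they stood low, by -0.172. The other 9 libraries lay between -0.069 and 0.073. The medians that rest on these libraries are given without each of them further on.

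MRP transcript levels spanned a 12.2-fold range. Per transcript length, Mrpl20, a large subunit protein with a bacterial counterpart, was the most abundant at a mean of 181 TPM over the 12 libraries, followed by Mrps21 at 177, Mrpl17 at 162, Mrps23 at 140 and Mrpl42 and Mrps18c at 136 each. At the other end stood Mrpl1 at 14.8 TPM, Mrpl35 at 15.7, Mrps31 at 16.1, Mrpl57 at 16.7 and Mrpl11 at 18.5. Before IL-4, Mrpl20 gave 171 ± 7.15 TPM in WT and 181 ± 6.85 in KO, and after it 179 ± 4.82 and 193 ± 3.58 (SD, n = 3). Mrps21 gave 189 ± 5.53 and 181 ± 5.59 TPM before IL-4, and 166 ± 6.67 and 171 ± 8.24 after it. The gene with the highest mean was Mrps21 in WT M0, Mrpl17 in WT M2 (180 ± 3.97 TPM) and Mrpl20 in KO M0 and KO M2, and in all groups but WT M0 its lead over the next gene was smaller than the SD. Small and large subunit genes had nearly the same median level, 65.7 and 61.7 TPM. Within a group the coefficient of variation of a member had a median between 3.16% in KO M0 and 6.51% in WT M0.

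**Figure D1:**
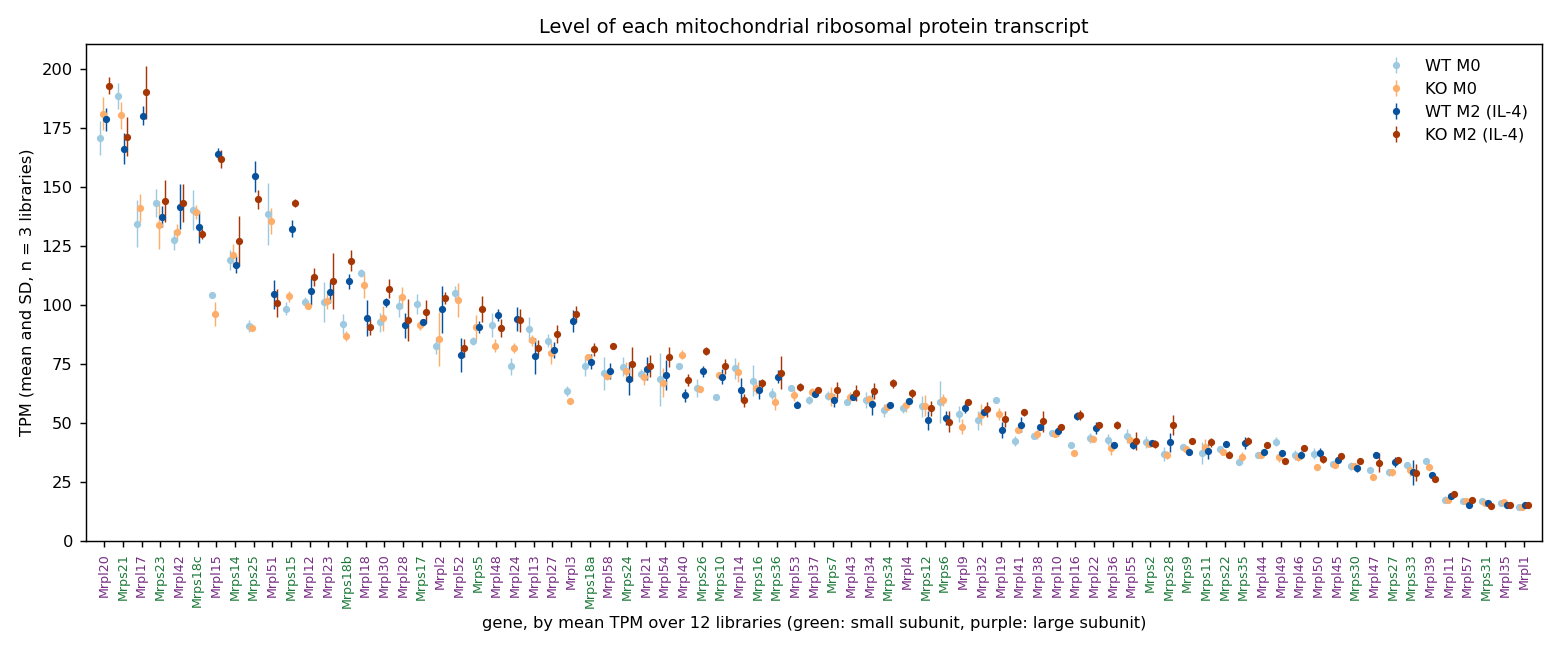
Mean TPM with SD of 3 libraries for each of the 77 genes, ordered by mean level from Mrpl20 (181 TPM) to Mrpl1 (14.8 TPM), in the 4 groups, with small subunit names in green and large subunit names in purple. The IL-4 groups separate from the M0 groups for a few abundant genes such as Mrpl17, Mrpl15 and Mrps25, while most genes lie within a narrow band over all groups.

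Summed over its 29 genes, the small subunit went from 2035 ± 65.2 TPM in M0 to 2127 ± 26.0 in M2 in WT cells, and from 2019 ± 21.1 to 2228 ± 58.5 in KO cells (SD, n = 3). The large subunit went from 3217 ± 76.0 to 3326 ± 56.1 TPM in WT and from 3181 ± 35.3 to 3446 ± 92.5 in KO. In KO every M2 library lay above every M0 library for both subunits. In WT the small subunit sums touched but did not overlap, with 2104 in M2 replicate 1 and 2102 in M0 replicate 3, and the large subunit sums of the same libraries overlapped, at 3276 and 3279. The ratio of the large to the small subunit sum stayed between 1.54 and 1.60 in all 12 libraries. All MRP genes together made up 0.510% to 0.583% of the TPM of a library.

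Promoter sequence, which the choice by name did not use, was searched for 5 short motifs. RefSeq windows of 250 bases before to 50 bases after the transcription start (GRCm38.p6) were matched by symbol for 68 of the 77 genes, in 74 windows, and not for Mrpl4, Mrpl13, Mrpl15, Mrpl19, Mrpl38, Mrpl54, Mrps28, Mrps34 and Mrps35. The letters CCGGAAG, the core bound by ETS factors such as GABP (NRF-2), a known activator of nuclear genes for mitochondria, stood on either strand in 33.8% of MRP windows and in 8.86% of all 32851 windows. AAGATGGC, the YY1 core, stood in 16.2% against 2.75%, and GCATGCGC, the core of the NRF1 site, in 9.46% against 2.71%. The E-box CACGTG, which MYC binds, stood in 9.46% against 7.15%, and the STAT6 site through which IL-4 signals, TTC and GAA 4 bases apart, in 4.05% against 6.95%. The 7 MRP windows with an E-box belong to only 5 of the 68 genes, since the same Mrpl2 site lay in several overlapping windows. Base composition was not matched in these shares, and a match is only a match of letters. The stretches below show matches in genes whose IL-4 or genotype values are described further on, 5′ to 3′ on the strand of the gene, with the matched letters (or their reverse complement) in capitals.
Mrpl3 (ETS; rose with IL-4; chr9:105053238-105053267, plus strand): tgagaaacggaCCGGAAGtggcccggctgt
Mrpl17 (NRF1, reverse; rose with IL-4; chr7:105811080-105811109, minus strand): gccgagttactGCGCATGCgtcctctgaga
Mrpl51 (ETS; fell with IL-4; chr6:125192099-125192128, plus strand): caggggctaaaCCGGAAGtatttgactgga
Mrpl52 (ETS, reverse; fell with IL-4; chr14:54426851-54426880, plus strand): caagatgtcggCTTCCGGttttcccggcag
Mrpl49 (YY1; lower in untreated KO; chr19:6057721-6057750, minus strand): gttgaggcgccAAGATGGCagcagcggtgt
The ETS letters thus stood in genes that moved in opposite directions. Of the genes with a window, they were present in 6 of 17 that rose with IL-4 in both genotypes, in 2 of 4 that fell in both and in 10 of 25 that were called in neither. They were also present in 7 of 22 called in 1 genotype. The STAT6 letters stood in 0 of the 17 genes that rose in both, in 0 of the 25 called in neither and in 3 of the 22 called in 1 genotype, Mrpl44, Mrpl53 and Mrps17, which were called higher in KO. Without single libraries the calls of Mrpl53 and Mrps17 were lost in 4 and 5 of 6 fits, with adjusted p up to 0.131 and 0.16. In all, 27 of the 68 genes held none of the 5 motifs. Among the 17 that rose in both, 9 held none, Mrps25, Mrps15 and Mrpl16 among them.

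The first comparison asked how IL-4 changed MRP transcripts, in each genotype on its own. Tests used edgeR's quasi-likelihood model on all 12846 genes and 12 libraries, with p-values adjusted by Benjamini-Hochberg over all genes, and an adjusted p under 0.05 counted as a call. In WT BMMs 25 of 77 members were called, 21 higher and 4 lower, beside a background of 50.0% of all genes called (24.9% higher, 25.1% lower). The median log2 fold change was 0.082 over the members and -0.008 over all genes. In KO BMMs 48 members were called, 44 higher and 4 lower, beside a background of 52.8% (26.8% higher, 26.0% lower), and the median was 0.199 against 0.014 over all genes. By subunit, 9 small subunit genes were called higher and 0 lower in WT and 16 and 0 in KO, while 12 large subunit genes were called higher and 4 lower in WT and 28 and 4 in KO. By limma on log2(TPM + 1), a scale that accounts for transcript length within a library, the split was 15 higher and 11 lower in WT and 27 and 6 in KO, where that fit called 17.7% of all genes higher and 26.7% lower in WT, and 17.8% and 27.7% in KO.

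**Figure D2:**
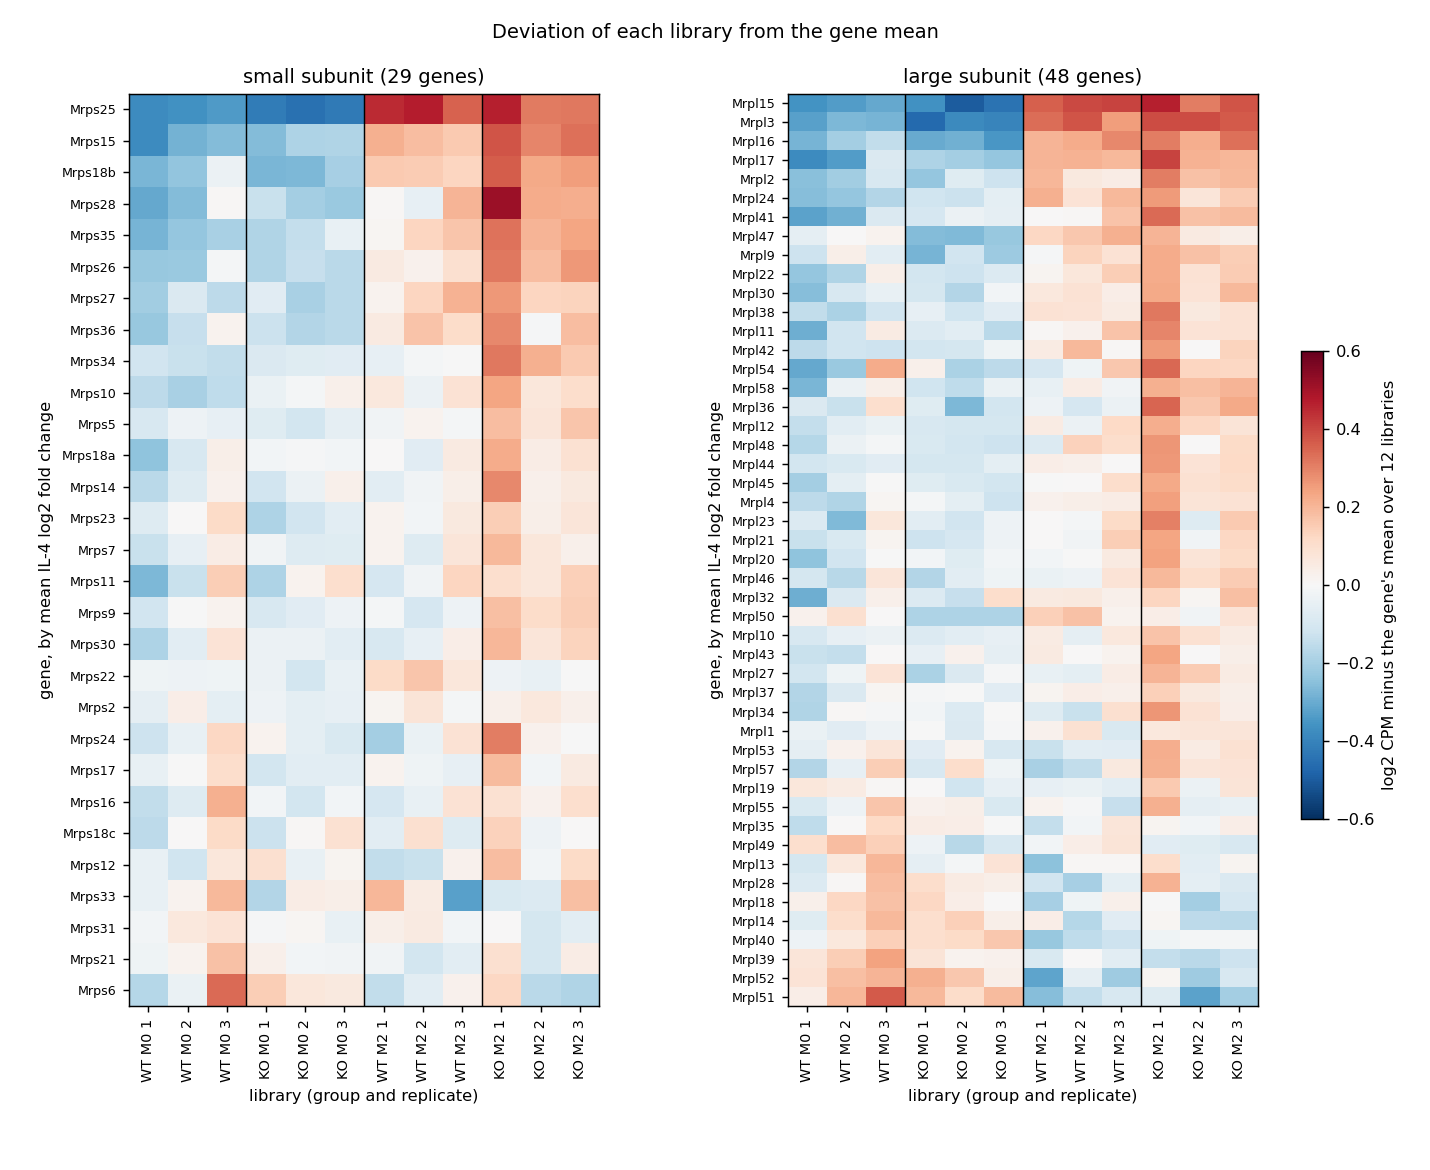
Deviation of log2 CPM (counts scaled by library size) from each gene's mean over 12 libraries, for 29 small subunit genes (left) and 48 large subunit genes (right), with libraries in columns by group and genes ordered by their mean IL-4 change. Red in both M2 groups is strongest for Mrps25, Mrpl15 and Mrpl3 at the top, blue for Mrpl51 and Mrpl52 at the bottom, and KO M2 replicate 1 is red over most genes.

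Mrps25, a small subunit protein with no bacterial counterpart, had the largest change in WT. In CPM, counts scaled by library size, it stood at 35.0, 35.3 and 36.0 in WT M0 and at 61.9, 63.0 and 58.1 in WT M2, and at 34.0, 33.3 and 33.8 in KO M0 and 62.7, 56.4 and 56.6 in KO M2. No M0 library reached any M2 library, and the genotypes ran side by side. The change was 0.78 ± 0.053 on the log2 scale in WT (SE; edgeR adjusted p = 7.92e-08) and 0.80 ± 0.052 in KO (adjusted p = 5.51e-08), about 1.72-fold and 1.74-fold. Its exons overlap those of Nr2c2 on the other strand, which fell with IL-4 by 0.278 in WT (adjusted p = 0.0256) and by 0.601 in KO (adjusted p = 0.000105).

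Mrpl15 and Mrpl3, large subunit proteins with bacterial counterparts, followed. Mrpl15 went from 42.3, 43.0 and 43.9 CPM to 69.6, 71.3 and 72.0 in WT and from 42.2, 38.4 and 40.0 to 74.9, 67.1 and 70.5 in KO. Its log2 fold change was 0.72 ± 0.053 in WT (edgeR adjusted p = 1.69e-07) and 0.82 ± 0.052 in KO (adjusted p = 4.17e-08), and M0 and M2 libraries did not overlap. Mrpl3, which lies near the peptidyl transferase centre, went from 50.2, 52.3 and 52.0 CPM to 79.5, 81.9 and 75.0 in WT and from 45.6, 48.4 and 47.9 to 82.6, 82.6 and 81.3 in KO. That was 0.61 ± 0.046 in WT (adjusted p = 2.27e-07) and 0.80 ± 0.046 in KO (adjusted p = 1.63e-08).

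The next largest rises in WT were those of Mrps15, Mrpl17 and Mrpl16, all with bacterial counterparts. Mrps15 rose from 44.1, 47.0 and 47.8 CPM to 66.2, 64.9 and 63.7 in WT, a log2 fold change of 0.49 ± 0.048, and by 0.54 ± 0.047 in KO. Mrpl17 rose by 0.46 ± 0.076 in WT and 0.48 ± 0.074 in KO, and Mrpl16 by 0.45 ± 0.055 and 0.60 ± 0.053. The edgeR adjusted p of these 3 genes was at most 2.33e-04 in either genotype. All 6 of the genes with the largest rises in WT kept their calls when any 1 library was left out.

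The 4 genes that edgeR called lower were Mrpl51, Mrpl52, Mrpl39 and Mrpl40, all large subunit proteins without a bacterial counterpart, and they were the same 4 in both genotypes. Mrpl51 went from 50.8, 56.9 and 63.8 CPM to 41.4, 44.8 and 46.3 in WT and from 56.6, 53.5 and 56.4 to 46.9, 39.6 and 43.0 in KO. All M2 libraries lay below all M0 libraries of their genotype. The fall was -0.37 ± 0.084 in WT (edgeR adjusted p = 0.00252) and -0.36 ± 0.082 in KO (adjusted p = 0.00231). Mrpl52 fell by 0.35 in WT (adjusted p = 0.00389) and by 0.24 in KO (adjusted p = 0.0239), Mrpl39 by 0.21 and 0.18, and Mrpl40 by 0.23 and 0.14. In KO the calls of Mrpl40 and Mrpl52 were lost in 6 and 4 of 6 fits that left out 1 library, with adjusted p up to 0.128 and 0.108. Mrpl51 starts 100 bases from the divergent gene Ncapd2, a condensin subunit that fell by 1.22 in WT and by 1.12 in KO.

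**Figure D3:**
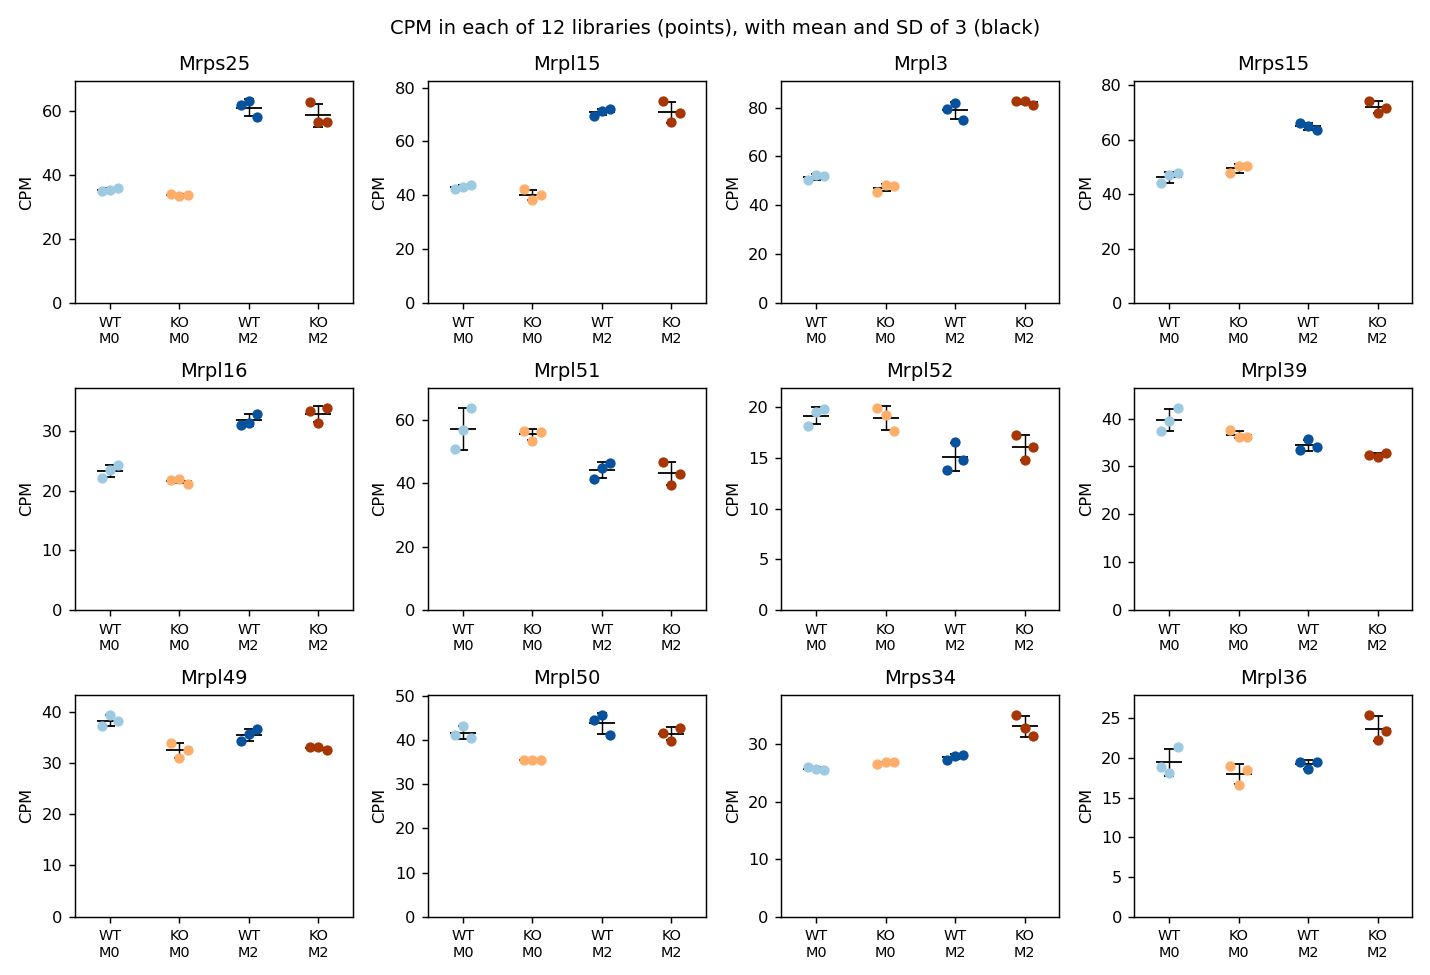
CPM in each of the 12 libraries (points) with mean and SD of 3 (black) for 12 members, on axes that start at 0. Mrps25, Mrpl15, Mrpl3, Mrps15 and Mrpl16 are higher in all M2 libraries than in any M0 library, Mrpl51, Mrpl52 and Mrpl39 are lower in M2 within each genotype, Mrpl49 and Mrpl50 are lower in untreated KO, and Mrps34 and Mrpl36 are highest in KO M2.

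Of the paralogs that descend from the bacterial S18 protein, only Mrps18b was called with IL-4. Mrps18b rose from 45.1, 46.2 and 53.2 CPM to 60.7, 60.6 and 59.6 in WT and from 45.1, 45.1 and 47.5 to 70.0, 63.8 and 64.7 in KO, by 0.33 ± 0.063 (edgeR adjusted p = 8.72e-04) and 0.53 ± 0.062 (adjusted p = 1.26e-05). Mrps18a gave 0.10 ± 0.071 in WT and 0.13 ± 0.069 in KO, and Mrps18c -0.005 ± 0.082 and 0.04 ± 0.080, and neither was called. Whether the paralogs differ from each other was not tested. Mrpl12, which also binds the mitochondrial RNA polymerase, gave 0.13 in WT (adjusted p = 0.0641) and rose by 0.24 in KO (adjusted p = 0.00163). Mrpl58, a peptidyl-tRNA hydrolase that rescues stalled ribosomes, gave 0.08 in WT (adjusted p = 0.391) and rose by 0.30 in KO (adjusted p = 0.00288). Mrps36 gave 0.22 in WT (adjusted p = 0.0384) and rose by 0.31 in KO (adjusted p = 0.0051). Its call in WT was lost without WT M0 replicate 1 or 2 or WT M2 replicate 2 or 3, with adjusted p up to 0.132.

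The genes other than Mrps36 were also sorted by whether the protein has a bacterial counterpart, a rough grouping made from general knowledge after the values were seen. Its assignments were not checked against protein sequences, so the counts by class are approximate. Beside the 24.9% of all genes called higher and 25.1% lower in WT, and 26.8% and 26.0% in KO, 11 of 45 genes with a counterpart rose and 0 fell in WT, and 25 rose and 0 fell in KO. Of 31 genes without one, 9 rose and 4 fell in WT and 18 rose and 4 fell in KO. With and without a counterpart, the median log2 fold change was 0.056 and 0.101 in WT, and 0.169 and 0.212 in KO.

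The calls of the genotypes overlapped, and their libraries are separate. Of the 25 members called in WT, 24 (96.0%) were called in KO in the same direction, 20 higher and 4 lower, which is 50.0% of the 48 called in KO. Over all genes, 79.4% of those called in WT were called in KO in the same direction, and 75.3% of those called in KO were called so in WT. Mrps22, a small subunit protein, was called in WT only, at 24.5, 24.4 and 24.4 CPM in M0 and 26.9, 27.9 and 26.1 in M2 (0.15, edgeR adjusted p = 0.0242), against 0.04 in KO (adjusted p = 0.524). Its call was lost without WT M0 replicate 2 or WT M2 replicate 1 or 2, with adjusted p up to 0.0911. When 1 library was left out, 18 of the 25 calls in WT and 33 of the 48 in KO were kept in all 6 fits, and the other 7 and 15 were lost in at least 1. Across the 77 genes, which are not independent replicates, the 2 sets of log2 fold changes had a Pearson r of 0.90, against 0.85 over all genes tested. A call in KO and not in WT does not show that the responses differ.

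**Figure D4:**
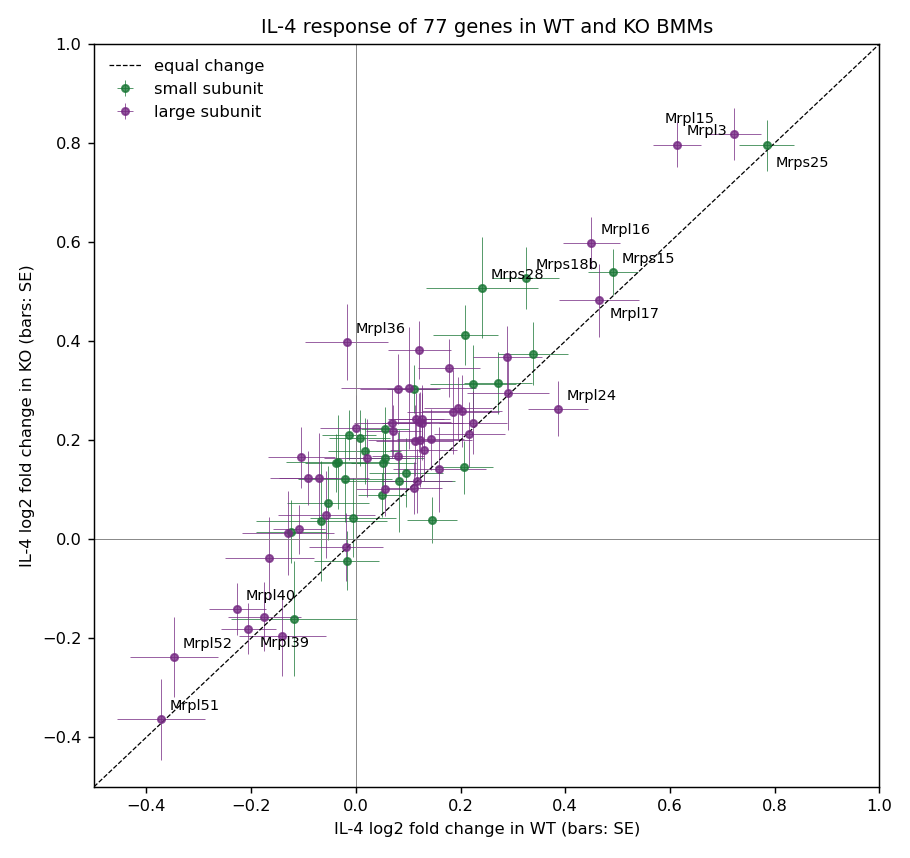
IL-4 log2 fold change in WT (horizontal) against KO (vertical) for 77 genes with SE bars, small subunit in green and large in purple, and a dashed line of equal change. Mrps25 (0.78 and 0.80) lies on the line, Mrpl36 (-0.02 and 0.40) lies farthest above it, Mrpl24 (0.39 and 0.26) lies below it, and 68 of 77 genes lie above it.

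The contrast between the 2 IL-4 responses was therefore tested itself. By edgeR 0 of 77 members were called, beside a background of 3.24% of all genes called (1.11% higher, 2.13% lower). The count was also 0 by limma and was 1 by DESeq2, and 14 members had an unadjusted p under 0.05, all with a larger change in KO, beside a background of 7.81% of genes at that level in that direction. The median difference was 0.102, against 0.006 over all genes. Other genes under 600 nt had a median of 0.115 and those of 600 to 900 nt 0.108. Members of these lengths had 0.109 and 0.097. From 900 to 1200, 1200 to 1800 and 1800 to 3000 nt, other genes had 0.084, 0.059 and 0.012. There the members had 0.114, 0.109 and 0.058. Values with the length trend removed are given further on. Mrpl36, a short large subunit protein with a bacterial counterpart, had the largest difference of the members. It stood at 18.8, 18.2 and 21.4 CPM in WT M0 and 19.5, 18.6 and 19.5 in WT M2, and at 19.0, 16.6 and 18.5 in KO M0 and 25.5, 22.3 and 23.4 in KO M2. The KO M2 libraries lay above all others. The difference was 0.42 ± 0.11 (adjusted p = 0.0633). It was called by DESeq2 (0.41, adjusted p = 0.0328) and with the mouse as a block in edgeR (0.41, adjusted p = 0.0188). Its exons overlap those of Ndufs6 on the other strand, whose difference was 0.046 ± 0.097 (adjusted p = 0.849).

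The second comparison asked what loss of IGF2BP2 changed in untreated cells. In M0, 3 members were called, 0 higher and 3 lower, beside a background of 9.78% of all genes called (5.5% higher, 4.27% lower). The median was -0.009 over the members and -0.001 over all genes, and 34 of 77 were positive. The 3 genes were Mrpl49, Mrpl50 and Mrpl47, all of the large subunit, while the small subunit had 0 called. At an unadjusted p under 0.05 there were 9 members, beside a background of 25.3%, 2 of them of the small subunit.

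Mrpl49 stood at 37.2, 39.4 and 38.3 CPM in WT M0 and at 33.9, 30.9 and 32.5 in KO M0, a log2 difference of -0.24 ± 0.049 (edgeR adjusted p = 0.0105). Mrpl50 stood at 41.1, 43.2 and 40.5 CPM in WT and at 35.5, 35.5 and 35.5 in KO (-0.23 ± 0.052, adjusted p = 0.0172). Mrpl47, the counterpart of bacterial L29 near the exit tunnel, stood at 18.4, 19.1 and 19.4 CPM in WT and 15.9, 15.9 and 16.3 in KO (-0.24 ± 0.059, adjusted p = 0.0250). None of the 3 overlapped between genotypes. Each lost its call in some of the 6 fits without 1 library, with adjusted p up to 0.0674, 0.101 and 0.0984. Mrpl49 shares exon sequence with Syvn1 on the other strand, which was higher in KO by 0.283 (adjusted p = 0.00488). In M2 the same 3 genes were at -0.11, -0.08 and -0.07, and none was called. Among members higher in KO, Mrps10 had the smallest p, with 36.4, 35.5 and 36.5 CPM in WT and 39.5, 40.2 and 41.4 in KO (0.16 ± 0.054, adjusted p = 0.0828). It was called by limma on log2(TPM + 1) (adjusted p = 0.0276), a fit that did not call Mrpl47.

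The same question was put to IL-4-treated cells. Only Mrps34, a small subunit protein with no bacterial counterpart, was called, beside a background of 2.68% (1.21% higher, 1.46% lower). It stood at 27.3, 28.0 and 28.2 CPM in WT M2 and at 35.1, 32.8 and 31.5 in KO M2 (0.25 ± 0.050, edgeR adjusted p = 0.0274), and in M0 at 26.1, 25.8 and 25.5 against 26.6, 26.9 and 26.9. The KO M2 libraries lay above the other 9. Without single libraries its call was lost in 4 of 6 fits, with adjusted p up to 0.0989. Its exons overlap Nme3 on the same strand and Mapk8ip3 on the other, which were at -0.147 and -0.119 and not called. Behind it, with values that did not pass, stood Mrpl36 at 0.30 ± 0.079 (adjusted p = 0.0643), Mrps9 at 0.19 ± 0.052 (adjusted p = 0.0704) and Mrpl53 at 0.21 ± 0.063 (adjusted p = 0.0994). Mrps9 gave 30.1, 28.3 and 29.7 CPM in WT M2 and 34.3, 32.7 and 33.5 in KO M2. In all, 22 members lay higher in every KO M2 library than in any WT M2 library and 3 lower, beside backgrounds of 13.1% and 11.7% of all genes. Mrps22 was one of the lower, at 24.4, 24.1 and 24.9 CPM in KO against the WT values above (-0.14, adjusted p = 0.131). The 11 members on the study's own list of mitochondrial gene expression in M2 were all positive with a median of 0.194, but that list was chosen on these samples. The difference between genotypes in M2, the IL-4 change in KO and the difference between responses share the KO M2 libraries and are not separate evidence.

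Small differences of one sign over many members need the length of the transcripts beside them. In M2, 64 of 77 members were positive with a median of 0.091, and all other genes tested showed a graded pattern by length. Their median difference between KO and WT was 0.114 under 600 nt, 0.078 from 600 to 900 nt, 0.068 from 900 to 1200 nt, 0.040 from 1200 to 1800 nt, 0.010 from 1800 to 3000 nt and -0.064 above 3000 nt. MRP genes in the same length classes had medians of 0.091, 0.123, 0.102, 0.087 and 0.057, with a single gene above 3000 nt. In M0 the other genes ran slightly the other way, from -0.024 under 600 nt to 0.024 above 3000 nt.

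With the trend of each library on transcript length removed, an alternative chosen after seeing the data, 47 of 77 members were positive in M2 with a median of 0.033 and 0 called. The difference between responses then had a median of 0.008 with 42 positive and 0 called. Without KO M2 replicate 1, the library with the most short-transcript signal, the M2 median was 0.052 with 60 positive. The IL-4 median in KO was then 0.138, and the difference between responses had a median of 0.048. Without WT M0 replicate 3 the difference between responses had a median of 0.043 and 0 called, the IL-4 median in WT was 0.126 and the M0 median was 0.050. Without WT M0 replicate 1 these values moved the other way, to 0.143 with 1 member called, 0.060 and -0.053. With counts thinned to the smallest library the M2 median stayed at 0.090. Whether the length trend comes from the RNA, the library preparation or the cells was not tested.

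With the trend removed, the IL-4 calls of the genotypes came closer. They were then 35 higher and 6 lower in WT and 39 higher and 7 lower in KO, beside 29.6% of all genes called higher and 25.4% lower in WT, and 30.5% and 25.9% in KO. The median went from 0.082 to 0.11 in WT and from 0.199 to 0.127 in KO. In both genotypes and in the same direction 33 members were called, with 13 called in KO only and 8 in WT only. Of the 24 members called with IL-4 in KO and not in WT before, 10 were called in WT as well. Mrpl49, Mrpl50 and Mrpl47 were still called lower in untreated KO (adjusted p = 0.00676, 0.0146 and 0.00899), beside 3 members called higher, Mrps10, Mrpl24 and Mrpl41. The share of all genes called in that M0 fit is not given here.

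**Figure D5:**
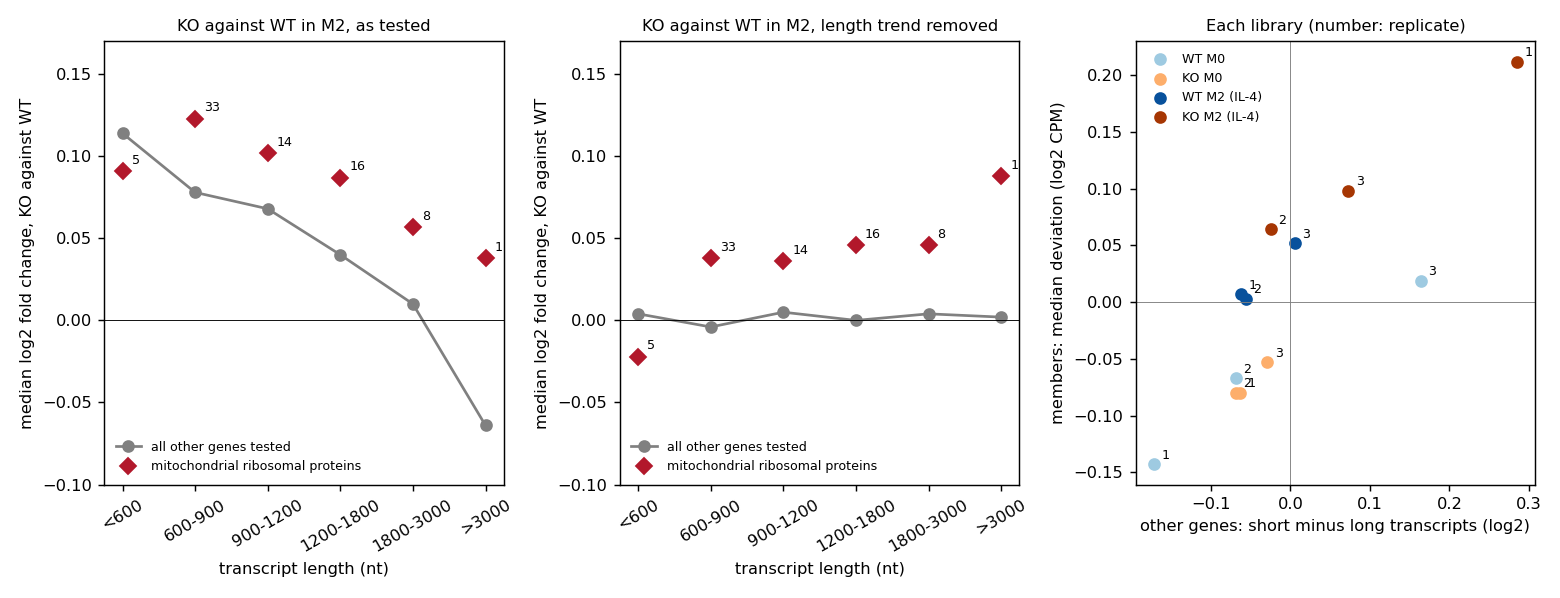
Left and middle, median log2 fold change of KO against WT in M2 by transcript length, for all other genes tested (grey) and MRP genes (red, with their number), as tested and with each library's length trend removed. Right, for each library, the median deviation of MRP genes against the deviation of short from long transcripts among other genes, where KO M2 replicate 1 lies far right at 0.285 and 0.212, and WT M0 replicate 1 far left at -0.172 and -0.143.

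Genes that work with the mitochondrial ribosome were read from fixed lists, and their IL-4 counts stand beside the 50.0% of all genes called in WT and 52.8% in KO. Of 6 genes without an Mrp symbol, ribosome proteins and the insertase Oxa1l that docks on the ribosome, Ptcd3, an RNA-binding protein of the small subunit, rose with IL-4 in WT (0.23, edgeR adjusted p = 0.00272) and KO (0.20, adjusted p = 0.00576), and Dap3 and Gadd45gip1 rose in KO. Of 14 translation factors 6 rose and 0 fell in WT and 9 rose and 0 fell in KO. Among them were Gfm2, which acts in ribosome recycling (0.51 and 0.33), Mrrf, the recycling factor (0.42 and 0.24), Tufm, the elongation factor Tu (0.31 and 0.27), and Lrpprc, which stabilises mitochondrial mRNAs (0.50 and 0.48). Of 26 assembly factors 3 rose and 4 fell in WT and 8 rose and 2 fell in KO. Rbfa, which matures the small subunit, rose in both (0.53 and 0.51) and the GTPase Gtpbp10, a large subunit factor, fell in both (-0.49 and -0.27). In untreated KO cells 1 of the 14 translation factors was called, Taco1, a translational activator, which was lower (-0.36, adjusted p = 0.0128). In M0, 5 of 26 assembly factors were called lower in KO and 0 higher, beside the background of 4.27% lower, namely Mrm1 (-0.39), Gtpbp10 (-0.28), Ngrn (-0.26), Fastkd2 (-0.22) and Rcc1l (-0.20), and in M2 Rcc1l was called higher (0.24, adjusted p = 0.0421). Rcc1l, which acts in ribosome assembly, was also the 1 assembly factor whose IL-4 responses were called different, with a larger change in KO (0.45, adjusted p = 0.0115).

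Of 12 tested regulators of mitochondrial biogenesis, 6 rose and 2 fell with IL-4 in WT, and 6 rose and 1 fell in KO. Beside them, 50.0% of all genes were called in WT and 52.8% in KO. Higher in both were Ppargc1b, a coactivator known for its rise in alternative activation (1.13 in WT, 1.09 in KO), Myc (0.66 and 0.94), Tefm, the mitochondrial transcription elongation factor (0.53 and 0.82), and Tfb2m, a mitochondrial transcription initiation factor (0.19 and 0.32). Pprc1 and Yy1 rose in WT, Esrra and Polrmt rose in KO, and Gabpb1 fell in WT. Gabpa, the DNA-binding subunit of GABP, fell in both (-0.29 and -0.37). By genotype 0 of the 12 were called, in M0 or in M2, beside 9.78% and 2.68% of all genes. For scale, beside the 24.9% of all genes called higher in WT and 26.8% in KO, 22 of 77 cytosolic ribosomal protein genes rose with IL-4 and 0 fell in WT, and 58 rose and 0 fell in KO, with medians of 0.115 and 0.200. Of 76 respiratory chain and ATP synthase genes 10 rose and 2 fell in WT, and 22 rose and 0 fell in KO, with medians of 0.026 and 0.140. The cytosolic medians were near those of the MRP genes, 0.082 and 0.199, and the respiratory ones were lower. The counts and medians of these other lists come from the main fit only, with the length trend left in. The lists were not tested against each other.

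Other signals moved with IL-4 and genotype in the same libraries. All 20 listed cell cycle genes fell with IL-4 in both genotypes, and their summed level was also lower in every KO than in any WT library of the same treatment. It ran from 3797 to 4101 TPM in WT M0, from 3422 to 3618 in KO M0, from 2051 to 2414 in WT M2 and from 1900 to 1950 in KO M2. In KO M2, 4 of the 20 were called lower against WT (Mcm2, Mcm3, Mcm4 and Mcm7), beside 1.46% of all genes. Most MRP values were positive in that comparison. The summed level of 5 neutrophil genes was 18.0 to 43.2 TPM in untreated WT, above all 3 untreated KO libraries, of which the lowest was at 13.9. After IL-4 it was 11.8 to 27.4 TPM in WT, overlapping the 10.9 to 15.7 of KO, with Ly6g listed at 0 throughout. S100a9 was called lower in untreated KO (-1.38, edgeR adjusted p = 0.0124). That of 5 fibroblast genes ran from 10.9 to 22.8 TPM in WT and from 3.18 to 12.6 in KO. In bulk RNA, fewer cells of a type and less RNA per cell cannot be told apart, and the part of these signals in the MRP values was not tested. The counts of Mrps33, Mrpl23 and Mrps36 carried a posterior SD of 13.0%, 4.80% and 1.91% of the count, and pseudogenes of Mrpl23 and Mrps36 exist. In all, 32 members overlap exons of another gene, 25 of them only on the other strand, and whether the counting used strand was not given in the sources used here.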

How the data were processed

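RNA-seq libraries of 12 BMM cultures (WT and KO, M0 and M2, 3 each) were analysed. Per the labels and the study's methods, RNA was poly(A)-selected, made into directional libraries, sequenced as single-end 75 nt reads and mapped to GRCm38/mm10 with the Grape-nf pipeline. The authors deposited, per library and gene, expected counts and TPM values (transcript levels scaled by effective length and library size). The tool that estimated them is not given in the sources used here. The submitters' processing notes name DESeq2 1.40.2 and FastQC 0.11.2. The deposited comparison tables hold the authors' fold changes and p-values, which were not used, and only gene symbols were taken from them.

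Expected counts were rounded and tested with edgeR 4.0.16 (TMM, filterByExpr by group, 4 group coefficients, quasi-likelihood F test, Benjamini-Hochberg over 12846 genes). CPM are counts divided by TMM-scaled library sizes. The TMM factors lay between 1.018 and 1.041 in M0 libraries and between 0.961 and 0.981 in M2 libraries, which raises M2 values against M0 values. Alternatives were DESeq2 1.42.0, limma 3.58.1 on log2(TPM + 1) and log2(TPM + 0.1), RLE factors, other filters, thinning, fewer libraries, blocks and an offset by transcript length (lowess, span 0.3). The test code was tested on simulated data. Total counts of 20011771 to 39632751 and a biological coefficient of variation of 8.08% set the precision. M0 and M2 libraries of a genotype share numbers in the labels, taken as the mouse, and the deviations of every such pair correlated, at 0.103 to 0.364. The main fit has no block, and a fit with the mouse as a block is given where it changed a call. WT and KO libraries of a number did not pair (-0.068 to 0.04). With mice as replicates, p-values cover the spread between these 6 mice. Members with full statistics were, per comparison, the 6 called with the largest changes each way, or those with the 4 smallest p where few were called, plus members chosen for level or role. The members and lists were chosen with earlier results of these data known.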

Additional observations from a re-analysis of the deposited data

How the results depend on the processing

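The number of members called by genotype was small. In M0 it was 3, and 3 with 8 other settings (by limma, Mrps10 took the place of Mrpl47), against 2 with no filter on low counts, 6 with the length trend of each library removed, and 0 to 3 when 1 library was left out (0 without WT M0 replicate 2 or KO M0 replicate 2, 1 without KO M0 replicate 1 or 3). In M2 it was 1, against 2 with DESeq2 and 2 with a replicate block on the library number (Mrpl36 added in each), 0 with limma at either pseudocount, 0 after thinning, 0 with only the 6 libraries of the comparison, 0 with the length trend removed, and 0 to 1 without 1 library (0 without WT M2 replicate 1 or 2 or KO M2 replicate 2 or 3). The library number does not pair WT with KO mice.

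For IL-4 in WT the count was 25, against 41 with the length trend removed and 43 with that and the replicate block on the mouse, and 20 to 31 without 1 library. For IL-4 in KO it was 48, with 37 to 48 without 1 library. The share of all genes called in the fits without 1 library is not given here. These ranges therefore do not tell a change in the members from a change in the whole fit. For the difference between responses it was 0, against 1 with DESeq2, 1 with the replicate block on the mouse, 3 with the block and the length trend removed (Mrpl36 and Mrpl9 higher, Mrpl24 lower), and 0 to 1 without 1 library (Mrpl58 without WT M0 replicate 1). The replicate block moved no other of these counts by over 1.5 times. Of the IL-4 calls over all genes, 39.9% in WT and 39.2% in KO were higher by limma on log2(TPM + 1), against 49.8% and 50.7% with edgeR. For the 39 members followed one by one under each setting, which are not all members called, 83 calls were lost, 33 gained and 0 turned in direction. For 3 against 3 libraries the smallest p of an exact permutation test is 0.10.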

Other observations

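Some MRP genes lie in head-to-head pairs. For 33 of the 77 (42.9%), another protein-coding gene starts on the opposite strand within 1000 bases, against 1987 of the 11720 protein-coding genes tested, a difference that was not tested, and the partners did not always move together with IL-4. Mrpl27 rose in KO while its partner Eme1, a nuclease subunit of DNA repair, fell by 1.22 on the log2 scale there. Mrps27 rose in both genotypes together with Ptcd2, a protein of mitochondrial RNA processing 81 bases away, which rose by 0.46 in WT and 0.38 in KO. Mrps18b rose together with Ppp1r10, a phosphatase subunit 45 bases away (0.22 in both).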
